A study of Homo sapiens with 6 samples.

Results

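The desmosome is the junction that ties neighbouring epithelial cells together and anchors their keratin filaments. Its mRNAs were compared between an oesophageal squamous cell carcinoma line and a clone of it made to lack KEAP1. The members were 10 genes chosen by symbol from 58884 rows of the deposited table: the cadherins DSG1, DSG2, DSG3, DSC1, DSC2 and DSC3, and the plaque genes DSP, JUP, PKP1 and PKP3. Each symbol stood on a single row. The genes were picked by symbol rather than by a threshold on their values, but with earlier results of these data known.

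The control group was KYSE450, a human oesophageal squamous cell carcinoma (ESCC) line with wild-type NRF2, in 3 RNA-seq libraries. The other group was KEAP1null-KYSE450, also in 3 libraries, a line grown from 1 cell after CRISPR-Cas9 cutting in exon 2 of KEAP1. KEAP1 is the adaptor protein through which the transcription factor NRF2 is degraded. By the methods, cells were cultured in RPMI1640 with serum. No drug is named for the cells used for RNA-seq. With a single edited clone, the loss of KEAP1 and any other property of that clone cannot be told apart. In bulk RNA, fewer expressing cells and less RNA per cell also cannot be told apart.

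In a desmosome, desmogleins (DSG) and desmocollins (DSC) span the membrane and bind those of the next cell. Inside the cell their tails bind plakoglobin (JUP) and the plakophilins (PKP), and these bind desmoplakin (DSP), which holds the keratins. In stratified squamous epithelium DSG3 and DSC3 are typical of the lower and middle layers, DSG1 and DSC1 of the upper layers, and DSG2 is the broadly expressed desmoglein.

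The plaque and the cadherins moved apart. In KEAP1null-KYSE450 cells all 4 plaque mRNAs were lower, from 2.02-fold for PKP3 to 7.73-fold for PKP1. Among the cadherins DSG1, DSC2 and DSC3 were higher, DSG3 was higher by a small margin, and DSG2 did not pass the test. Values are normalized counts, that is, reads per gene divided by a size factor of the library. Differences were tested with limma on log2(normalized count + 1), with Benjamini-Hochberg adjustment over the 16701 genes whose mean reached 10. DSC1 lay under that mean, so 9 of the 10 members were tested. At an adjusted p under 0.05 with at least a 2-fold change, 4 members were lower, where 5.98% of all genes tested were, and 1 was higher, where 12.2% were. At the adjusted p alone, 4 were lower and 4 higher, against 25.5% and 24.3% of all genes. The median log2 fold change was 0.56 over the 5 cadherins tested, -1.41 over the 4 plaque genes and 0.004 over all genes.

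**Figure D1:**
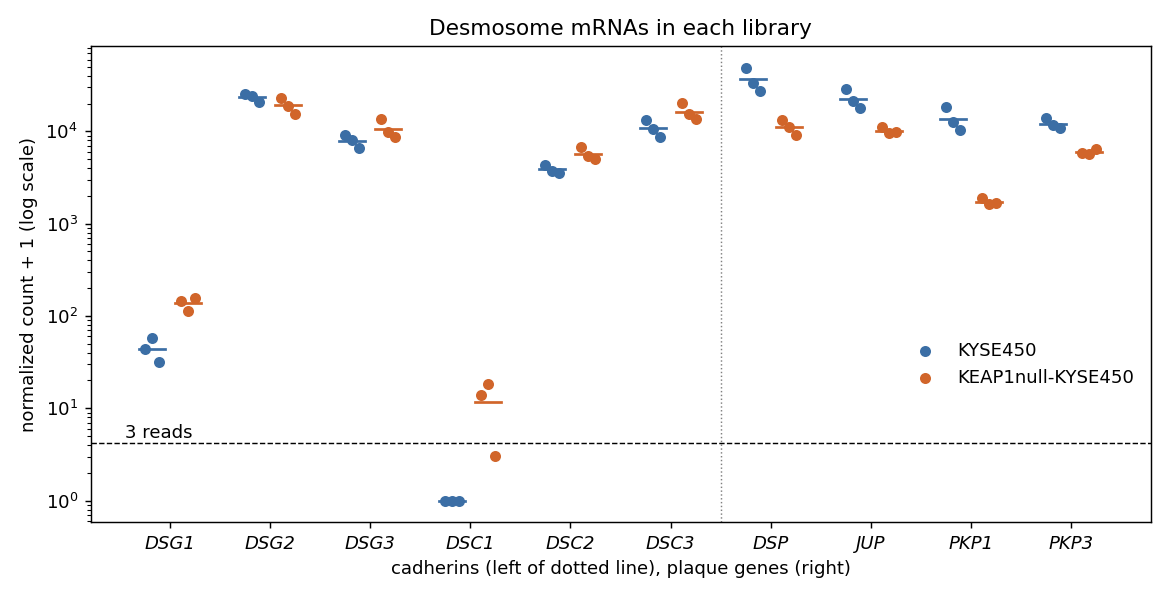
Normalized count plus 1 (log axis) of each desmosome gene, with 1 point per library and a bar at the mean of each line. The dashed line marks 3 reads. The plaque genes on the right are lower in all 3 KEAP1null-KYSE450 libraries, while DSG2 and DSG3 overlap between the lines and DSC1 is at 0 in all 3 KYSE450 libraries.

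The libraries held between 53027359 and 61543442 reads in the 4 where whole reads could be recovered, and 3 reads corresponded to between 2.77 and 3.21 normalized counts. Across genes, the log2 values correlated with a Pearson's r between 0.984 and 0.989 for libraries of the same line and between 0.924 and 0.936 for libraries of different lines. KEAP1 mRNA was 5760, 5226 and 5146 in KYSE450 and 5737, 4906 and 5317 in KEAP1null-KYSE450 (log2 fold change -0.02, adjusted p = 0.90, limma). Counts per gene do not show whether a transcript carries the edit. All 8 squamous markers examined (KRT5, KRT6A, KRT14, TP63, SOX2, PAX9, SFN, CDH1) were detected in every library. At the adjusted p 6 of them were lower and 2 (KRT5 and PAX9) higher in KEAP1null-KYSE450, where 25.5% and 24.3% of all genes tested were. The median log2 fold change of these markers was -0.71. SOX2 had a log2 fold change of -1.0 (adjusted p = 3.5e-06, limma) and SFN one of -0.41 (adjusted p = 0.0029, limma). Their part in the differences of the desmosome genes was not tested. Of 7 fibroblast markers 6 had a mean under 10, and the seventh, COL1A1, made up most of their sum, which was 624 to 854 in KYSE450 and 352 to 437 in KEAP1null-KYSE450. Of 7 immune and endothelial markers 5 had a mean under 10 and PECAM1 was at 0 throughout. Their sum was 64.2 to 86.9 against 46.2 to 89.8, most of it VWF, and CDH5 was lower, at 10.7, 20.2 and 28.9 against 1.85, 3.06 and 1.01 (log2 fold change -2.77, adjusted p = 0.0048, limma). Each KEAP1null-KYSE450 value of CDH5 was at or under 3 reads, so it reached the mean of 10 only through KYSE450. Its log2 fold change lay between -3.54 and -1.28 in other settings.

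The members also varied together among libraries of the same line. Of the 9 tested, 8 were highest in KYSE450 library 1, as were 43.5% of all genes tested, and 9 were lowest in library 3, as were 35.9%. In KEAP1null-KYSE450, 7 were highest in library 1, as were 42.4% of all genes. The members' median deviation from their line's mean log2 value was 0.207 and -0.294 in KYSE450 libraries 1 and 3 and 0.256 and -0.182 in KEAP1null-KYSE450 libraries 1 and 3, where the medians over all genes tested were 0.027, -0.014, 0.023 and -0.004. Genes with 5 kb or more of exon showed a smaller deviation of the same sign, 0.077, -0.044, 0.064 and -0.041. The part of this spread in the differences between the lines was not tested, but each difference was computed again without each library.

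Desmoplakin (DSP, ENSG00000096696, chr6:7541338-7586714, plus strand of hg38) is the linker from the plaque to keratin. Its normalized counts were 49098, 33562 and 27212 in KYSE450 and 13128, 11061 and 9143 in KEAP1null-KYSE450. The lowest KYSE450 library held more than double the counts of the highest KEAP1null-KYSE450 library. The mean fell from 36624 ± 11260 to 11111 ± 1993 (SD, n = 3 each). The log2 fold change was -1.69 (SE 0.19, 95% interval -2.09 to -1.29, adjusted p = 1.2e-05, limma), that is, 3.23-fold lower. A lncRNA on the opposite strand, AL031058.1, overlaps the start of DSP and the library kit was taken not to mark strand, but its counts were between 53.5 and 116.

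Plakoglobin (JUP, ENSG00000173801, chr17:41754604-41786931, minus strand) is an armadillo protein that binds the tails of desmosomal and of classical cadherins. Its counts were 28730, 21237 and 17899 in KYSE450 and 11033, 9609 and 9854 in KEAP1null-KYSE450, with no overlap. The log2 fold change was -1.13 (SE 0.15, 95% interval -1.44 to -0.81, adjusted p = 4.6e-05, limma), or 2.19-fold lower. It fell short of a 2-fold change without KYSE450 library 1 (-0.94) and after quantile normalization (-0.92), and its adjusted p stayed at or under 0.0062 in all 16 other settings.

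Plakophilin 1 (PKP1, ENSG00000081277, chr1:201283452-201332993, plus strand) clusters desmosomal cadherins and desmoplakin at the plaque and is typical of stratified epithelium. It had the largest difference of the 9 members tested. Its counts were 18264, 12752 and 10282 in KYSE450 and 1902, 1631 and 1672 in KEAP1null-KYSE450. The mean fell from 13766 ± 4087 to 1735 ± 146 (SD, n = 3 each). The log2 fold change was -2.95 (SE 0.16, 95% interval -3.31 to -2.59, adjusted p = 2.6e-08, limma). The difference was between -3.14 and -2.73 in the other settings.

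Plakophilin 3 (PKP3, ENSG00000184363, chr11:392614-404908, plus strand) occurs in the desmosomes of most epithelia. Its counts were 13844, 11824 and 10764 in KYSE450 and 5816, 5715 and 6467 in KEAP1null-KYSE450, again with no overlap. The log2 fold change was -1.01 (SE 0.11, 95% interval -1.24 to -0.78, adjusted p = 9.5e-06, limma). It lay at the 2-fold threshold and did not reach it in 5 of 16 other settings, among them those without KYSE450 library 1 (-0.91), without KEAP1null-KYSE450 library 1 (-0.99) or without KEAP1null-KYSE450 library 2 (-0.98). The adjusted p was at most 0.0023 in these 16.

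Among the cadherins, the desmogleins changed unevenly. DSG1 (ENSG00000134760, chr18:31318160-31359246, plus strand) was scarce in both lines, at 42.8, 56.6 and 30.8 in KYSE450 and 144, 111 and 156 in KEAP1null-KYSE450. It was 3.17-fold higher (log2 fold change 1.67, SE 0.28, 95% interval 1.06 to 2.27, adjusted p = 0.00037, limma) and higher in 3 of 3 libraries. Its antisense lncRNA DSG1-AS1, which cannot be separated from it where they overlap if strand was not marked, was also higher, at 15.0, 10.1 and 9.32 against 38.8, 66.3 and 27.2 (log2 fold change 1.79, adjusted p = 0.0051, limma).

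DSG2 (ENSG00000046604, chr18:31498177-31549008, plus strand) is the desmoglein found in desmosomes of nearly all epithelia. Its counts were 25379, 23948 and 20576 in KYSE450 and 23257, 18637 and 15616 in KEAP1null-KYSE450, and the lines overlapped. The log2 fold change was -0.30 (SE 0.14, 95% interval -0.59 to 0.00, adjusted p = 0.092, limma). An equal level and a 1.51-fold lower level both lay within its interval. Without KEAP1null-KYSE450 library 1 it was -0.44 (adjusted p = 0.011) and without KYSE450 library 3 -0.38 (adjusted p = 0.046).

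DSG3 (ENSG00000134757, chr18:31447741-31478702, plus strand), the desmoglein of the lower squamous layers, had counts of 9110, 8095 and 6666 in KYSE450 and 13475, 9870 and 8612 in KEAP1null-KYSE450. Here 2 of the 3 KEAP1null-KYSE450 libraries were above all KYSE450 libraries. The log2 fold change was 0.41 (SE 0.16, 95% interval 0.07 to 0.74, adjusted p = 0.045, limma). The adjusted p was under 0.05 in 8 of 16 other settings. It was above it without KYSE450 library 2 (0.084), without KYSE450 library 3 (0.15), without KEAP1null-KYSE450 library 1 (0.18, at a log2 fold change of 0.22) and without KEAP1null-KYSE450 library 2 (0.075). The same held with a pseudocount of 0.1 (0.052), without the filter on the mean (0.061) and with the variance prior held constant across levels (0.16). It also held for limma on the 4 libraries with recovered reads (0.055).

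Both of the more abundant desmocollins were higher in KEAP1null-KYSE450 cells. DSC2 (ENSG00000134755, chr18:31058840-31102522, minus strand) had 4327, 3762 and 3560 counts in KYSE450 and 6833, 5390 and 5021 in KEAP1null-KYSE450, with no overlap. It was 1.47-fold higher (log2 fold change 0.56, SE 0.12, adjusted p = 0.0024, limma), with an adjusted p of at most 0.03 in the other settings. DSC3 (ENSG00000134762, chr18:30989365-31042815, minus strand) had 13337, 10496 and 8717 counts in KYSE450 and 20336, 15259 and 13651 in KEAP1null-KYSE450. Its libraries did not overlap either, and it was 1.51-fold higher (log2 fold change 0.60, SE 0.16, adjusted p = 0.0086, limma). With the variance prior held constant across levels its adjusted p was 0.07.

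DSC1 (ENSG00000134765, chr18:31129236-31162856, minus strand), the desmocollin of the upper layers, had no read in any KYSE450 library. In KEAP1null-KYSE450 it had 12.9, 17.3 and 2.02 normalized counts, of which the last was under 3 reads. Against a level of 3 reads per library (3.21 normalized counts), the KEAP1null-KYSE450 mean of 10.8 ± 7.88 (SD, n = 3) was 3.35-fold higher. This ratio leaves out the spread between libraries, and DSC1 lay under the mean needed for the test.

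**Figure D2:**
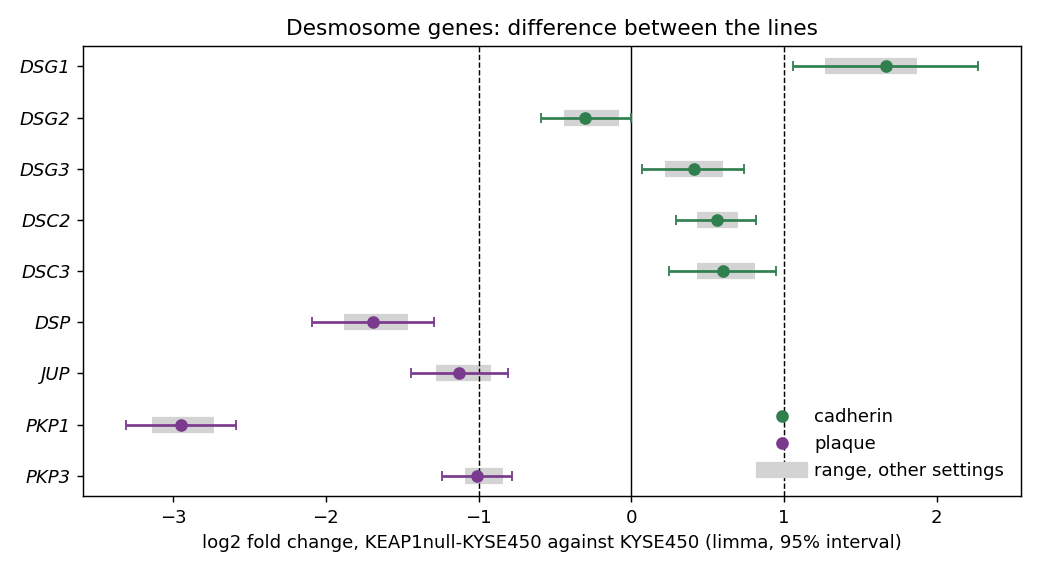
Log2 fold change of the 9 members tested (x axis) with its 95% interval from limma, cadherins in green and plaque genes in purple. Grey bars span the 15 or 16 other settings. All 4 plaque genes lie left of 0 under every setting run, PKP1 farthest at -2.95, and the dashed lines mark a 2-fold change.

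Because the members differ in length, levels were compared between genes per kb of merged exon. In KYSE450 the order was JUP (4578 ± 1122 normalized counts per kb, SD, n = 3), PKP3 (3200 ± 412), DSP (2689 ± 827), DSG2 (2455 ± 260), PKP1 (2216 ± 658), DSG3 (1426 ± 220), DSC3 (1409 ± 303), DSC2 (311 ± 31.8) and DSG1 (5.86 ± 1.75), with DSC1 at 0. From PKP3 to PKP1 the neighbours in this order differed by less than the larger of their SDs, as did DSG3 and DSC3. In KEAP1null-KYSE450 the cadherins DSC3 (2132 ± 453), DSG2 (2020 ± 405) and DSG3 (1909 ± 452) stood beside JUP (2057 ± 154), and these 4 also differed from their neighbours in the order by less than the larger SD. PKP3 (1581 ± 108), DSP (816 ± 146), DSC2 (460 ± 76.6), PKP1 (279 ± 23.5), DSG1 (18.5 ± 3.16) and DSC1 (2.52 ± 1.85) followed. PKP1 went from rank 5 to rank 8 and DSC3 from rank 7 to rank 1, or from rank 6 to rank 3 per kb of the longest transcript.

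Summed per kb, the 4 plaque genes were at 16007, 11931 and 10112 in KYSE450 and at 5035, 4525 and 4639 in KEAP1null-KYSE450, 2.68-fold lower in the mean. The 6 cadherins summed to 6391, 5646 and 4784 against 8076, 6165 and 5385, and these ranges overlapped (exact permutation p = 0.5, two-sided). All 10 members together went from 18290 ± 3802 to 11275 ± 1625 normalized counts per kb (SD, n = 3 each), 1.62-fold lower. The log2 ratio of the cadherin to the plaque sum, a measure chosen after the values were seen, was -1.32, -1.08 and -1.08 in KYSE450 and 0.682, 0.446 and 0.215 in KEAP1null-KYSE450. That ratio was 3.05 times higher in KEAP1null-KYSE450 and did not overlap between the lines. For the plaque sum, the sum of all members and this ratio the exact permutation p was 0.1 (two-sided), the smallest that 3 against 3 libraries allow.

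**Figure D3:**
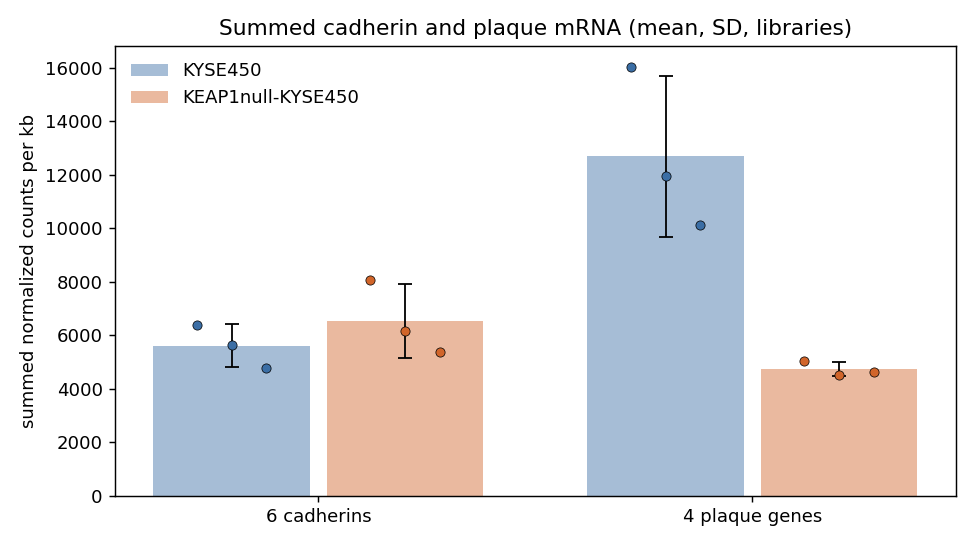
Summed normalized counts per kb of the 6 cadherins and the 4 plaque genes in KYSE450 (blue) and KEAP1null-KYSE450 (orange). Bars are means, lines the SD and points the 3 libraries of each line: the cadherin sums overlap, and the plaque sums drop from between 10112 and 16007 to between 4525 and 5035.

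The make-up of each family within a library does not depend on how the libraries were scaled, but the shares do depend on the gene length used. They are given per kb of merged exon. Per kb of the longest transcript, mean DSG3 was 1426 and DSG2 4090 in KYSE450, and 1909 and 3365 in KEAP1null-KYSE450. The difference between the lines in the log2 ratio of DSG3 to DSG2 was 0.702 with either length. DSG3 was 37.9, 36.4 and 35.5% of the desmogleins per kb in KYSE450 and 49.4, 47.2 and 48.1% in KEAP1null-KYSE450, and did not overlap. DSG2 made up 62.0, 63.4 and 64.4% of them in KYSE450 and 50.2, 52.4 and 51.3% in KEAP1null-KYSE450. The log2 ratio of DSG3 to DSG2 was higher in KEAP1null-KYSE450 by 0.702, or 1.63-fold, without overlap (exact permutation p = 0.1, two-sided, the smallest possible). It was higher by between 0.667 and 0.741 when any 1 library was left out. The desmocollins kept a similar make-up, with DSC3 at 81.7 ± 1.73% in KYSE450 and 82.1 ± 0.638% in KEAP1null-KYSE450. Their log2 ratio of DSC3 to DSC2 differed by 0.0406, within the spread of the libraries (exact permutation p = 0.8, two-sided).

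Within the plaque, PKP1 went from 17.3 ± 1.00% of the 4 genes' summed level per kb to 5.90 ± 0.161% (SD, n = 3 each). JUP went from 36.1 ± 0.252% to 43.4 ± 0.785% and PKP3 from 25.7 ± 2.66% to 33.5 ± 3.15%, so that both took larger shares of a smaller sum. DSP was 22.5, 20.7 and 19.8% in KYSE450 and 19.1, 17.9 and 14.5% in KEAP1null-KYSE450, the smallest gap between the lines of these 4 genes.

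**Figure D4:**
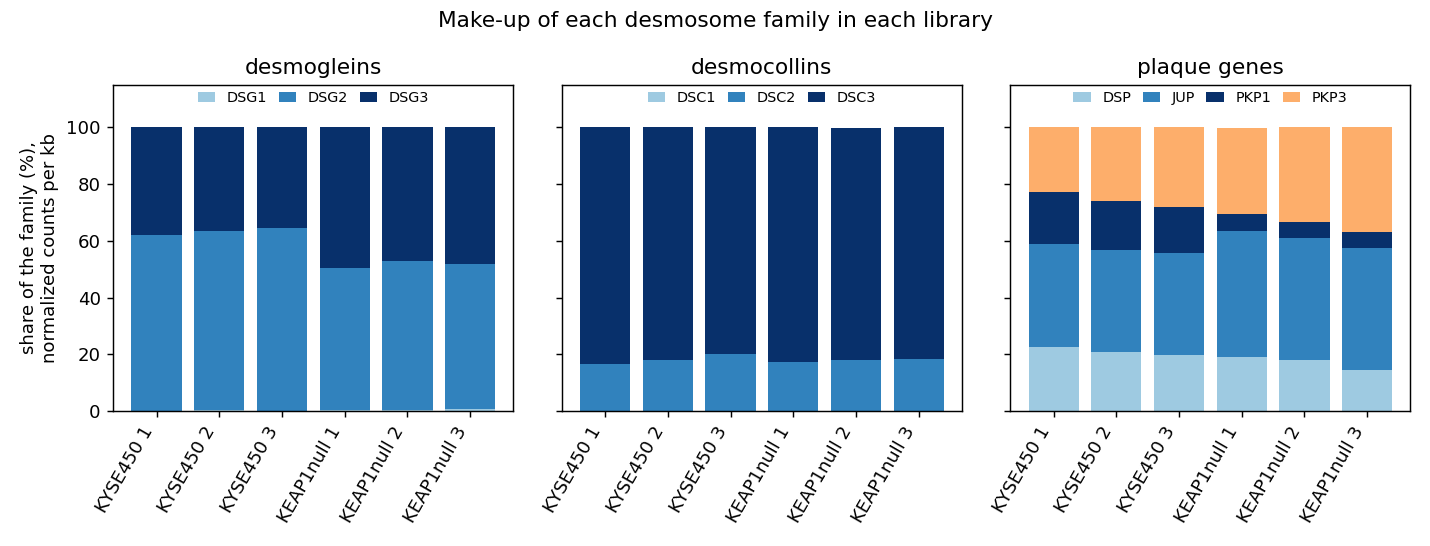
Share (%) of each desmoglein, desmocollin and plaque gene in its family's summed normalized counts per kb, with 1 bar per library (KEAP1null stands for KEAP1null-KYSE450). DSG3 is near 36.6% in KYSE450 and 48.2% in KEAP1null-KYSE450, PKP1 drops from 17.3% to 5.90%, and the DSC2 and DSC3 shares overlap between the lines.

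The region before the start of each gene was read to see what the members that moved together share. The RefSeq table (GRCh38.p14) held 9 of the 10 members, all except PKP3, with 2 starts each for DSC2 and JUP. Over the 250 bases before each start, 4 motifs chosen after the differences were known were searched on both strands. They were the core of the NRF2-bound antioxidant response element (TGACNNNGC), the AP-1 motif (TGANTCA), a Grainyhead motif (AACCNGTT) and the E-box that SNAI2 and ZEB1 can bind (CAGGTG). An antioxidant response element can contain an AP-1 motif, so these can overlap. The 5 windows shown are those of the 3 plaque genes in the table and of DSG2 and DSG3, with E-box matches in capitals on the gene's strand (CAGGTG, or CACCTG where the match is on the other strand). They lie at chr6:7541421-7541670 (DSP, plus), chr17:41785977-41786226 (JUP, minus, the start with matches), chr1:201283256-201283505 (PKP1, plus), chr18:31497927-31498176 (DSG2, plus) and chr18:31447491-31447740 (DSG3, plus).

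DSP: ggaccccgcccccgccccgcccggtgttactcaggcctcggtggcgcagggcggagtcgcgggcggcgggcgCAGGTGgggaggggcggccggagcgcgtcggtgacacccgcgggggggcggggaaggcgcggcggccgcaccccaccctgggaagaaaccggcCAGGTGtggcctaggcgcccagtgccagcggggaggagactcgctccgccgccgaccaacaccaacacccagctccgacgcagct

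JUP: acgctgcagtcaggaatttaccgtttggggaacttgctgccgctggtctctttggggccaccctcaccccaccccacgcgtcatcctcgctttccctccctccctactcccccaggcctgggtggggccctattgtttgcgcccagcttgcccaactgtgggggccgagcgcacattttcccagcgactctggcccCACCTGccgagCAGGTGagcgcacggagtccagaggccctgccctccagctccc

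PKP1: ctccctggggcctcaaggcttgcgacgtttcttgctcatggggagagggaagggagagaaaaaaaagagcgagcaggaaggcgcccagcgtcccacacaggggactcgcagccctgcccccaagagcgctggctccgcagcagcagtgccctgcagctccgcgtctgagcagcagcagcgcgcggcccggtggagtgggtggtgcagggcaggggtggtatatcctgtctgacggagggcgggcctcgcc

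DSG2: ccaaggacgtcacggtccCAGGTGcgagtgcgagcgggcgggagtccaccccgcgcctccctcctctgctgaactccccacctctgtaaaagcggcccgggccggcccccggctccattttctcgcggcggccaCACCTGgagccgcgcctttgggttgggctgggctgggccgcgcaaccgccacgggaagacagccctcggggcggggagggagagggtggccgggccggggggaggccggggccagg

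DSG3: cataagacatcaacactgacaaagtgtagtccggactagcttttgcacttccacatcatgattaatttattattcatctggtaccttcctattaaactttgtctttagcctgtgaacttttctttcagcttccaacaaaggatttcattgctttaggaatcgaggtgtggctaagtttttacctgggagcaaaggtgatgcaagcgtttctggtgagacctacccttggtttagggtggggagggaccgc

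The E-box occurred in 5 of the 11 windows of the 9 members, 1 window of each of 5 genes, and in 17.5% of 35116 promoter windows of this length. It stood 2 times each before DSP, JUP and DSG2 and 1 time each before DSC2 and DSG1, so it was found before members that were lower, higher and not past the test. DSP had it from 85 to 80 and from 178 to 173 bases before the start, and JUP from 43 to 38 and from 54 to 49. PKP1, DSG3, DSC3 and DSC1 had none in this window. The antioxidant response core was found in 10.9%, the AP-1 motif in 6.57% and the Grainyhead motif in 1.49% of all windows, and in 0 of the members' 11. The DSP window was 78.0% G and C, that of DSG3 42.8%, and the median of all windows 58.0%.

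Of the factors known to act on such motifs or on squamous adhesion genes, 9 were followed by name. ZEB1, a repressor of epithelial adhesion genes, was at 20.3, 7.08 and 13.1 in KYSE450 and at 423, 455 and 388 in KEAP1null-KYSE450 (log2 fold change 4.97, adjusted p = 1.2e-07, limma). GRHL1, a Grainyhead factor known to act on DSG1, fell from 549 ± 77.6 to 203 ± 5.63 (SD, n = 3 each; log2 fold change -1.42, adjusted p = 1.1e-05, limma). KLF4, a factor of squamous differentiation, fell from 2531 ± 244 to 834 ± 113 (log2 fold change -1.60, adjusted p = 5.4e-07, limma). Of the other 6, at an adjusted p under 0.05 but under a 2-fold change, SNAI2 was higher and TP63 lower, and 4 did not pass. Past both thresholds 1 of the 9 was higher and 2 were lower, against 12.2% and 5.98% of all genes tested. At the adjusted p alone 2 were higher and 3 lower, against 24.3% and 25.5%. Whether any of these bears on the desmosome genes was not tested.

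Other desmosome genes gave 3 lower and 0 higher of 6 tested at the adjusted p, where 25.5% and 24.3% of all genes tested were. PKP2, the plakophilin of simple epithelia and heart, was at 4457, 4178 and 4608 in KYSE450 and 2143, 1895 and 1913 in KEAP1null-KYSE450 (log2 fold change -1.15, adjusted p = 1.1e-06, limma), so PKP1, PKP2 and PKP3 were lower, while PKP4 had a log2 fold change of 0.14 (adjusted p = 0.22). The tetraspan protein PERP fell from 34275 ± 2213 to 21983 ± 2336 (SD, n = 3 each; log2 fold change -0.64, adjusted p = 0.00031, limma). Of the plakins that occur at desmosomes, PPL had a log2 fold change of -0.68 (adjusted p = 0.015, up to 0.096 in other settings, limma) and EVPL one of -0.25 (adjusted p = 0.19). DSG4 had at most 1.01 normalized counts in any library.

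The keratins, to which desmoplakin anchors, changed in both directions. Of 15 tested, 3 were higher and 6 lower past both thresholds, where 12.2% and 5.98% of all genes tested were. At the adjusted p alone 5 were higher and 6 lower, against 24.3% and 25.5%. KRT8 (log2 fold change 0.81, adjusted p = 0.00013, limma) and KRT18 (0.71, adjusted p = 0.0003, limma) were higher by less than 2-fold. KRT4, of suprabasal oesophageal cells, rose from 634 ± 86.3 to 22750 ± 1555 (SD, n = 3 each; log2 fold change 5.17), KRT15 had a log2 fold change of 1.72 and KRT5 one of 1.46 (0.87 after quantile normalization), all with adjusted p of at most 1.8e-05 (limma). KRT14 (-6.09), KRT17 (-4.85), KRT6A (-4.70), KRT6B (-1.56, adjusted p up to 0.1 in other settings), KRT6C (-1.44) and KRT13 (-1.40) were lower, with adjusted p of at most 0.0069 (limma). KRT6A, KRT6B and KRT6C are near-identical, and KRT14 and KRT17 have close copies, so reads may be split among them. The sum over the 16 keratins was 603623 to 797984 normalized counts in KYSE450 and 1070061 to 1263870 in KEAP1null-KYSE450, higher in 3 of 3 libraries while the 4 plaque genes were lower. That sum mostly follows KRT5, which went from a mean of 208100 to 568248, and KRT15, from 69800 to 225773. It does not describe the 6 keratins that were lower past both thresholds.

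At the adherens junction, which shares JUP with the desmosome, 2 of 6 genes were higher and 3 lower at the adjusted p, against 24.3% and 25.5% of all genes tested. P-cadherin (CDH3) fell from 15976 ± 2924 to 7036 ± 1553 (SD, n = 3 each; log2 fold change -1.19, adjusted p = 5e-05, limma) and N-cadherin (CDH2) rose from 372 ± 106 to 893 ± 263 (log2 fold change 1.27, adjusted p = 0.00054, limma). E-cadherin (CDH1) had a log2 fold change of -0.82 (adjusted p = 0.0022, limma). CTNNB1, beta-catenin and the closest relative of JUP among these genes, was at 19956, 20644 and 20558 in KYSE450 and 29273, 25566 and 24520 in KEAP1null-KYSE450 (log2 fold change 0.37, adjusted p = 0.0073, limma), opposite in sign to JUP. Its adjusted p reached 0.07 in other settings. Of 9 tested genes of desmosome turnover and signalling (proteases, their inhibitors and kinases among them), 0 passed both thresholds, and 2 were higher and 1 lower at the adjusted p, with log2 fold changes between -0.53 and 0.65.

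The genes around each member were compared with the member itself, taking the 5 nearest tested genes on either side at whatever distance. Around the desmocollin and desmoglein cluster (chr18:30989365-31549008), which holds all 6 cadherins, the median log2 fold change of the 10 neighbours was 0.42, with 3 higher and 0 lower at the adjusted p, and CDH2 the only neighbour past both thresholds. CDH2 was the nearest of the 5 before the cluster and ends at chr18:28177946, so those 5 lie megabases from it. Around DSP it was -0.51, with 5 of 10 lower and none as low as DSP itself (the lowest was -0.80), and BMP6 was higher (log2 fold change 2.00, adjusted p = 3e-06, limma). Around PKP3 it was -0.62, with 7 of 10 lower, of which IFITM1 (-2.51), IFITM3 (-1.57) and HRAS (-1.17) were past both thresholds. Around JUP and PKP1 the medians were -0.19 and -0.05. KRT17 (-4.85) and AC130686.1 (3.98) near JUP and INAVA (1.16) near PKP1 passed both thresholds. Each of these log2 fold changes is from limma. AC130686.1 was at 1.07, 1.01 and 0.0 in KYSE450, under 3 reads in each, and at 16.6, 24.5 and 35.3 in KEAP1null-KYSE450. It reached the mean of 10 only through KEAP1null-KYSE450, and its log2 fold change lay between 1.7 and 5.59 in other settings. Of all genes tested, 25.5% were lower and 24.3% higher at the adjusted p, and 5.98% were lower and 12.2% higher past both thresholds.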

How the data were processed

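RNA sequencing was analysed for 3 libraries of KYSE450 and 3 of KEAP1null-KYSE450 cells. The values the authors deposited are a signal, the normalized count of each gene in each library. The methods name the NEBNext Ultra RNA kit for the libraries without stating strand, and the kit was taken as one that does not mark it. Per the labels and methods, reads of 150 bp were trimmed with cutadapt (1.12), checked with FastQC (0.11.5), aligned to hg38 with STAR (2.6.90c), counted with featureCounts (1.5.1) and normalized. The annotation is given as RefSeq, although rows carry Ensembl identifiers. In all 6 libraries 100% of the values were whole multiples of 1 read (within 0.1 read). In 2 of them 1 read was worth too nearly 1 normalized count to recover reads with certainty, so count tests used the other 4. Since columns show only the line, libraries are numbered in column order. Nothing names separate cultures, so p-values measure the spread between libraries, which may be technical.

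Differences (KEAP1null-KYSE450 over KYSE450) were tested two-sided with limma (3.58.1, R 4.3.3; eBayes with trend) on log2(normalized count + 1) for genes with a mean of at least 10, adjusted over 16701 genes, with thresholds of 0.05 and, for both thresholds together, a log2 fold change of 1. Sums and ratios were compared by exact permutation of the libraries. The floor was 3 reads and covers counting error only. Gene positions and merged exon lengths are from gencode v44 of hg38, and promoter windows from RefSeq (GRCh38.p14).

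The members, the other gene lists and the tests were chosen with earlier results of these data known. All members were named with every value. Of the other lists, genes past both thresholds and a few chosen by symbol were named, and neighbours only past both thresholds. COL1A1, KRT8, KRT18, PAX9, PECAM1, SFN, SOX2, VWF, PKP4, SNAI2 and TP63 were singled out after their values were seen.

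The gene-wise test was repeated with a pseudocount of 0.1 or 10, without the filter or with a minimum mean of 100, with libraries scaled to equal totals or quantile-normalized, with eBayes without trend, with each of the 6 libraries left out, and with edgeR (4.0.16, quasi-likelihood, TMM), DESeq2 (1.42.0) and, added after the data were seen, limma on the 4 libraries with recovered reads. The mean minimum of 100 left DSG1 untested. Sums and ratios were repeated per kb of the longest transcript and with each library left out, the DSG3 to DSG2 and DSC3 to DSC2 ratios also with both pseudocounts, and the sum of all members also with libraries scaled to equal totals. On simulated data with 200 changed genes among 16701, limma recovered 200 with 4 false calls, edgeR 200 with 2 and DESeq2 200 with 1. The changed genes there had means of at least 100 and changes well above 2-fold. The simulation therefore does not show how often differences near or under 2-fold, or those of scarcer genes, would be found.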

Additional observations from a re-analysis of the deposited data

How the results depend on the processing

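The 4 lower members became 2 after quantile normalization (DSP and PKP1) and lay between 2 and 4 when single libraries were left out, with 2 without KYSE450 library 1. The number of members higher past both thresholds was 2 with no filter, where DSC1 entered with 0 reads in all KYSE450 libraries, so that its value there depends on the pseudocount, and 0 with a mean of at least 100, where DSG1 was not tested. The number higher at the adjusted p alone was 2 with eBayes without trend, where DSC3 and DSG3 no longer passed. The difference in the log2 ratio of DSC3 to DSC2 was -0.0461 without KYSE450 library 3 and between that and 0.12 over the libraries left out. Over all genes, quantile normalization gave 1388 higher and 1289 lower, against 2045 and 999. DSG1, DSC2, DSP and PKP1 kept their direction and stayed on the same side of both thresholds in every alternative that tested them, and the DSG3 to DSG2 ratio, the cadherin to plaque ratio and the summed level kept their direction. JUP and PKP3 lost the 2-fold threshold, and DSG2, DSG3 and DSC3 changed sides of the adjusted p, as given above. No paired analysis was possible because the columns of the deposited table carry no replicate numbers. With 3 libraries per line, an exact test of a single value cannot go below p = 0.1 by permutation.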
